A study of Xenopus tropicalis with 7 samples.

Results

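Axon guidance ligands and receptors are read here in the poly(A) RNA of *Xenopus tropicalis* embryos, in which Brachyury function was or was not depleted. The genes were those whose symbol in the deposited table names an Eph receptor, ephrin, semaphorin, plexin, neuropilin, netrin, DCC or UNC5 receptor, slit or robo, and 61 of the 19884 genes in the table matched. They comprised 8 EphA and 3 EphB receptors, 4 ephrin-A and 3 ephrin-B ligands, 17 semaphorins, 8 plexins, 2 neuropilins, 3 netrins, 5 DCC and UNC5 receptors, 3 slits and 4 robos. The remaining match, *unc50*, shares only its first letters with the UNC5 receptors: it is named for a *Caenorhabditis elegans* gene needed for the transport of acetylcholine receptors. Of the 61 symbols, 7 are written in capitals in the table. The genes were matched by symbol and not by a measured value, although earlier results of these data were known. All 61 had enough reads to be tested.

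All embryos were wild-type *X. tropicalis* of the Nigerian (Cam4) strain. Xbra/Xbra3 KD embryos had been injected at the 1-cell stage with 20 ng in total of morpholinos that block the splicing and the translation of *Xbra* and *Xbra3* transcripts, control embryos with 20 ng of a control morpholino, and both were collected as early tadpoles at stage 32 (3 libraries each). Uninjected embryos at stage 20 gave 1 further library. The RNA equivalent of 2 whole embryos went into each library. A morpholino lowers a protein without altering its gene, and it reaches all tissues of the embryo.

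Guidance cues steer growing axons and migrating cells by binding receptors on their surface. Netrins act through DCC, mostly as attractants, and through UNC5 receptors as repellents. Slits repel through robo receptors, and semaphorins act through plexins, the secreted class 3 members with neuropilins as co-receptors. Ephrins are held on the cell surface, so that Eph receptors read them by contact and both cells can respond. The same families pattern the midline of the nervous system, neural crest streams, somite boundaries and blood vessels, and many of their members are therefore active in several tissues of a tadpole.

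The 6 libraries at stage 32 held from 73740300 to 120160026 reads and the library at stage 20 held 119004036. *Xbra3*, listed as *t2*, was at 0.515 to 0.772 CPM (the reads of a gene per 1000000 reads of the scaled library total) in the KD libraries and at 14.5 to 27.3 CPM in the control libraries. *Xbra*, listed as *t*, was at 6.30 to 8.55 CPM in the KD and 9.90 to 17.5 CPM in the controls. All later CPM values at stage 32 are on this scale, errors are the SD over 3 libraries, and standard errors (SE) are those of a log2 fold change. Nothing in the labels says that replicates came from separate batches of embryos, beyond calling them biological replicates. The authors describe marked variation between their replicates, I and III against II, by which libraries clustered whether or not they were KD.

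Without a replicate term in the test, most guidance genes did not pass between Xbra/Xbra3 KD and control embryos, and those that passed came from several families. A gene was called at a false discovery rate (FDR) below 10% in edgeR's quasi-likelihood test. Of the 61 genes 10 were called, against 14.4% of all 16944 genes tested. The 7 that rose were *sema6c*, *robo4*, *SEMA7A*, *plxnc1*, *unc5b*, *robo3* and *slit1*, against 7.44% of all genes. The 3 that fell were *epha3*, *ntn3* and *ephb4*, against 6.98% of all genes. As a share, 16.4% of the guidance genes were called in this test, which is near the background. For each of the 10 called genes the 3 KD libraries all lay on one side of the 3 control libraries. This held for 23 of the 61 genes, against 30.4% of all genes. In 17 of them the KD was above the controls (15.9% of all genes), and in 6 it was below (14.6% of all genes).

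**Figure D1:**
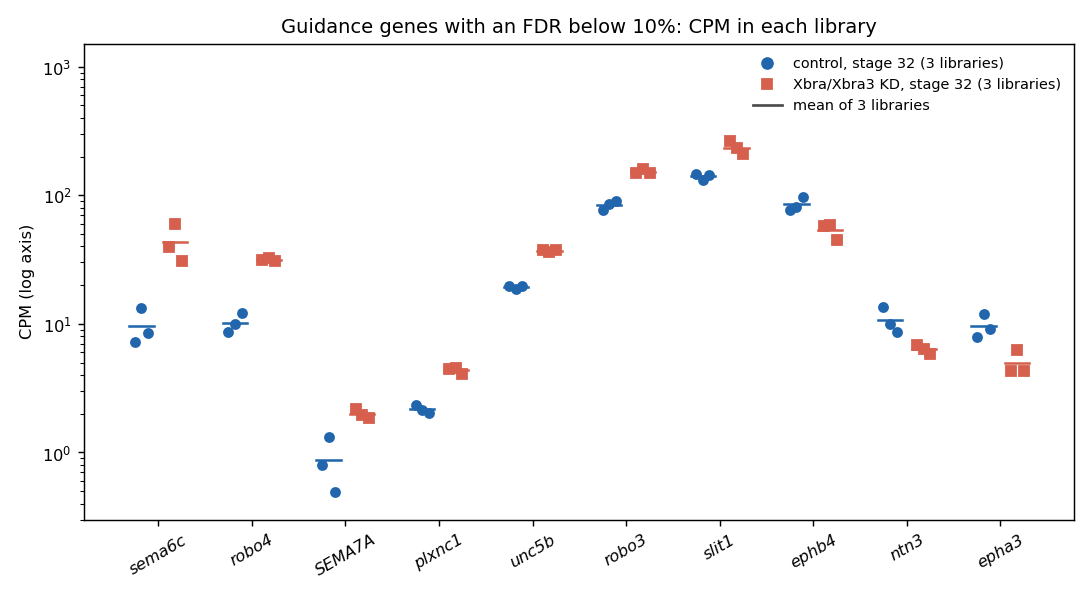
Level of each called guidance gene in each stage 32 library, in CPM on a log axis, with circles for the 3 control libraries, squares for the 3 Xbra/Xbra3 KD libraries and a line at the mean of each group. The groups do not overlap for any of the 10 genes, from *sema6c* (30.6 to 59.8 CPM in the KD and 7.22 to 13.2 CPM in the controls) to *epha3* (4.30 to 6.31 and 7.85 to 11.9 CPM).

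The small differences leaned upward. The log2 fold change was above 0 for 42 of the 61 genes, against 51.0% of all genes, and the median was 0.17 for the guidance genes and 0.01 for all genes. Before adjustment, 23 of the 61 genes had p below 0.05, and so had 4265 of all 16944 genes. The replicate number was then entered as a block, so that each KD library was set against the control library of its number. With this block 32 of the 61 genes passed (52.5%, against 38.2% of all genes). Of these, 25 were higher in the KD (41.0% of the 61, against 19.2% of all genes). The other 7 were lower (11.5% of the 61, against 19.0% of all genes), and all 10 genes named above were among the 32. DESeq2 called 18 of the 61, against 20.0% of all genes, and edgeR called 8 at an FDR below 5%, against 7.49% of all genes. The number called in each direction depended on the scaling. With library size only, 13 genes were called higher and 3 lower, and after scaling to 4 reference genes 14 higher and 0 lower. Over all genes these scalings gave 1649 higher and 869 lower, and 1790 higher and 398 lower, against 1261 and 1182 with the scaling used elsewhere. Leaving out control replicate 2 gave 11 guidance genes called higher (918 of all genes). Leaving out KD replicate 1, KD replicate 3 or control replicate 3 gave 1 called lower (624, 774 and 435 of all genes). The share of all genes called was 5.14% to 11.7% when 1 library was left out. Because whole embryos were sequenced, fewer cells of a type and less RNA per cell cannot be told apart in any of these values.

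**Figure D2:**
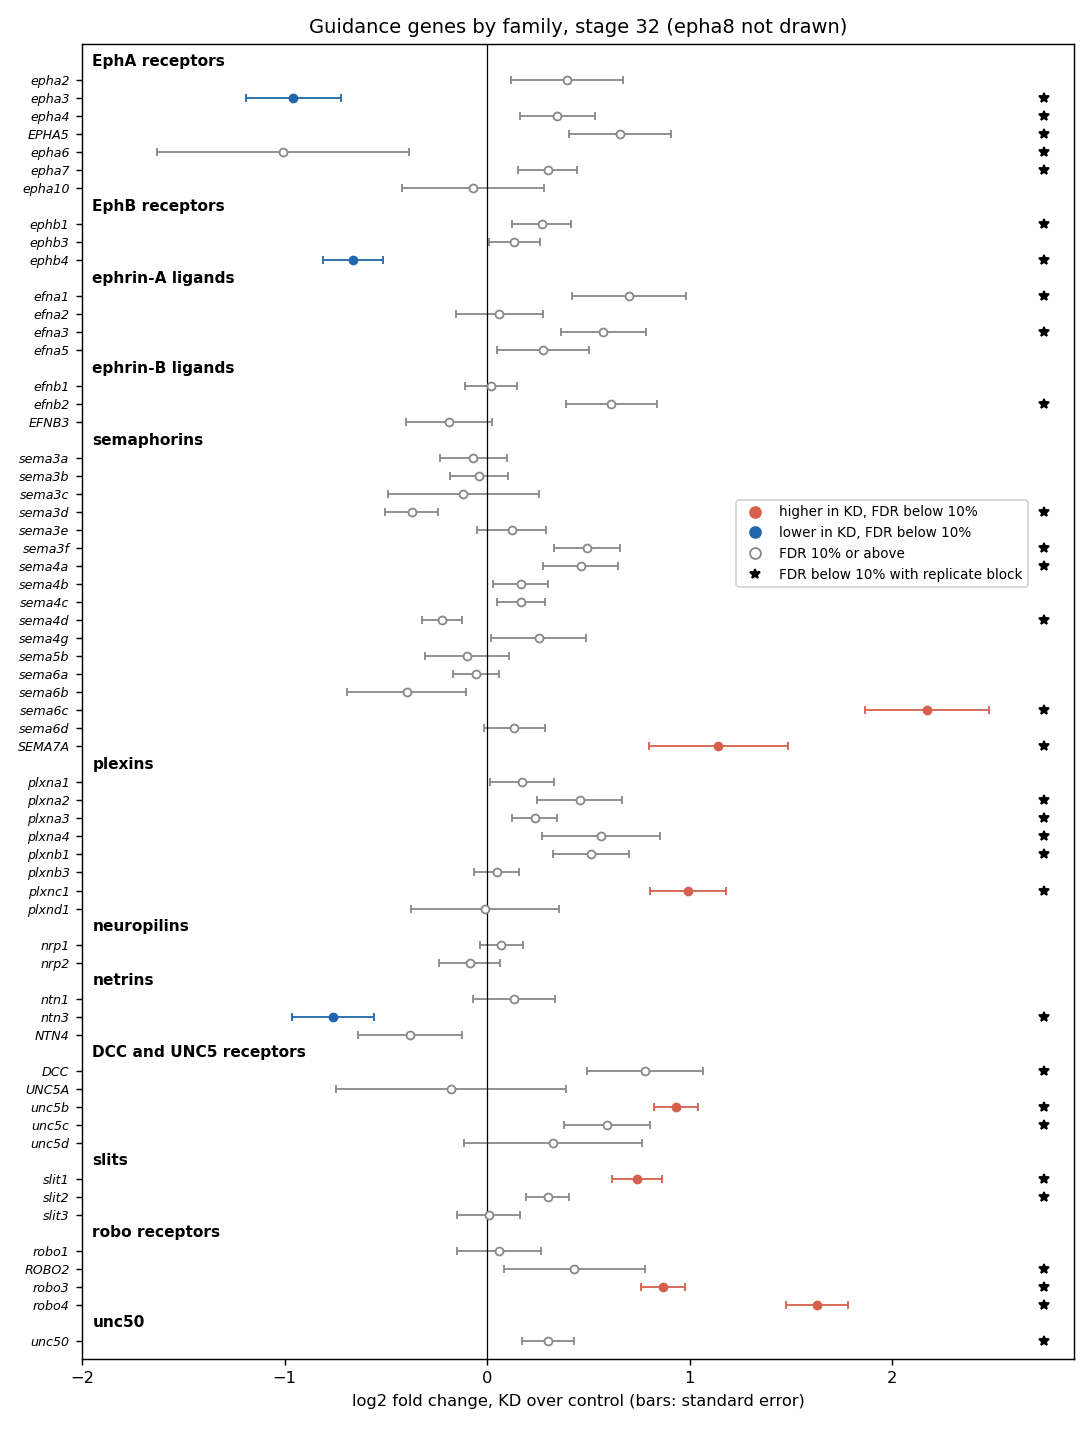
Log2 fold change of Xbra/Xbra3 KD over control for the guidance genes by family, with bars of 1 SE; filled circles passed an FDR of 10% (red higher, blue lower) and stars mark genes that passed with the replicate block. *epha8*, with at most 1 read in each KD library, is not drawn. The called genes run from -0.96 for *epha3* to 2.17 for *sema6c*. No called gene is an ephrin or a neuropilin, where 14.4% of all genes were called.

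Of the 4 robo receptors 2 rose and of the 3 slits 1 rose, and none fell, where 7.44% of all genes rose and 6.98% fell. Their median log2 fold changes were 0.65 and 0.30. *robo4* and *robo3* rose the most of their family, and *slit1* the most of the slits. *robo4* (ENSXETG00000003937), a receptor known in mouse and human mainly from blood vessel endothelium, was at 31.4, 32.4 and 31.0 CPM in KD replicates 1, 2 and 3 and at 8.67, 9.93 and 12.1 CPM in the control replicates. The 3 KD libraries were nearly alike, and the lowest of them stood well above the highest control. The rise was 3.09-fold (31.6 ± 0.73 against 10.2 ± 1.73 CPM, n = 3 per group, log2 fold change 1.63, SE 0.15, edgeR FDR = 0.00265). *robo3* (ENSXETG00000003938), which in the mouse lets commissural axons cross the midline, was at 148, 159 and 150 CPM in the KD and at 76.1, 84.9 and 89.6 CPM in the controls. It rose 1.82-fold (152 ± 5.6 against 83.5 ± 6.86 CPM, log2 fold change 0.87, SE 0.11, edgeR FDR = 0.00599). *robo4* and *robo3* are neighbours on chromosome 7 in the RefSeq annotation of the later UCB_Xtro_10.0 assembly, with 0 genes between them.

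*slit1* (ENSXETG00000003405), which encodes a secreted midline repellent, was at 263, 231 and 210 CPM in the KD and at 146, 131 and 144 CPM in the controls. All KD libraries were above all control libraries, and the rise was 1.67-fold (235 ± 26.7 against 141 ± 8.06 CPM, log2 fold change 0.74, SE 0.12, edgeR FDR = 0.0142). The 3 calls in these families, *robo4*, *robo3* and *slit1*, were also made in each of the 6 fits that left out 1 library. The related *slit2* did not overlap between groups either (101, 115 and 112 CPM against 93.8, 85.8 and 86.8 CPM), but its difference was smaller (log2 fold change 0.30, SE 0.11, edgeR FDR = 0.127, and 0.0446 with the block). *slit3* was at 104 to 154 CPM in the KD and 122 to 141 CPM in the controls, ranges that overlapped.

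The other robo receptors, *robo1* and *ROBO2*, are neighbours on chromosome 2 in the same annotation and did not pass the test. The level of *ROBO2* followed the replicate number in both groups. It was at 20.6, 40.3 and 23.4 CPM in the KD and at 14.0, 31.2 and 17.1 CPM in the controls, so that replicate 2 was the highest in both groups. The KD library was above the control library of its own number in all 3 pairs, while the groups overlapped (log2 fold change 0.43, SE 0.35, edgeR FDR = 0.494, and 0.0111 with the block). *robo1* differed by less than its spread, with 3.03 to 3.62 CPM in the KD and 2.89 to 3.85 CPM in the controls.

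Among the netrins and their receptors edgeR called a rise in a repulsive receptor and a fall in a ligand. *unc5b* (ENSXETG00000019901), which encodes a netrin receptor found on neurons and, in the mouse, also on endothelial cells, was at 37.5, 36.0 and 37.7 CPM in the KD. In the controls it was at 19.7, 18.8 and 19.8 CPM. The spread within each group was small against the distance between them, and the rise was 1.91-fold (37.1 ± 0.902 against 19.4 ± 0.573 CPM, log2 fold change 0.93, SE 0.11, edgeR FDR = 0.00492). It was called in each of the 6 fits without 1 library, with an edgeR FDR from 0.0130 to 0.0356.

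The median log2 fold change of the 5 DCC and UNC5 receptors was 0.59, although edgeR called only *unc5b* (20.0%, against 14.4% of all genes). DESeq2 called 3 of the 5, against 20.0% of all genes. *unc5c* (ENSXETG00000019221) was at 9.95, 15.5 and 12.8 CPM in the KD and at 6.89, 9.81 and 8.65 CPM in the controls. The groups did not overlap (log2 fold change 0.59, SE 0.21, edgeR FDR = 0.130, and 0.00686 with the block). *DCC* (ENSXETG00000030451), the receptor through which netrins attract, was at 6.99, 6.61 and 5.04 CPM in the KD and at 2.58, 5.13 and 3.11 CPM in the controls. Control replicate 2 lay just above the lowest KD library, and the gene missed the threshold (log2 fold change 0.78, SE 0.29, edgeR FDR = 0.138, and 0.0201 with the block). *UNC5A* had the largest SE of the tested receptors of this family, 0.57 on the log2 scale. Its values were 1.56, 5.09 and 2.72 CPM in the KD and 1.60, 6.27 and 2.55 CPM in the controls, with replicate 2 again the highest in both groups. The groups overlapped fully (log2 fold change -0.18, edgeR FDR = 0.886), and the sign turned when control replicate 2 (0.57) or KD replicate 1 (0.14) was left out. *unc5d* overlapped too, at 1.63 to 3.08 CPM in the KD and 1.01 to 2.84 CPM in the controls.

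*ntn3* (ENSXETG00000020288), a secreted netrin, fell 1.70-fold. It was at 6.87, 6.32 and 5.80 CPM in the KD and at 13.6, 9.90 and 8.68 CPM in the controls (6.33 ± 0.532 against 10.7 ± 2.54 CPM, log2 fold change -0.76, SE 0.20, edgeR FDR = 0.0619). The groups did not overlap, but the call was lost when any KD library (edgeR FDR 0.114 to 0.155) or control replicate 1 (edgeR FDR = 0.155) was left out. *ntn1* (ENSXETG00000019519), known as the floor plate attractant, was at 24.6, 23.6 and 15.3 CPM in the KD and at 22.1, 18.7 and 17.1 CPM in the controls. Its groups overlapped (log2 fold change 0.13, SE 0.20, edgeR FDR = 0.741). A second gene of the table carries only a RefSeq identifier that the annotation names *ntn1* (ENSXETG00000014390) and was not counted among the 61. It was at 6.75, 5.75 and 6.84 CPM in the KD and at 10.3, 7.86 and 9.72 CPM in the controls, without overlap (log2 fold change -0.53, SE 0.17, edgeR FDR = 0.108, and 0.0147 with the block). *NTN4* was at 1.53 to 2.50 CPM in the KD and 2.34 to 3.18 CPM in the controls, ranges that overlapped.

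The largest rise of any guidance gene was that of a transmembrane semaphorin. *sema6c* (ENSXETG00000005837) was at 39.6, 59.8 and 30.6 CPM in the KD and at 7.22, 13.2 and 8.42 CPM in the controls. Replicate 2 was the highest in both groups, and even the lowest KD library was above the highest control. The rise was 4.51-fold (43.4 ± 14.9 against 9.60 ± 3.14 CPM, log2 fold change 2.17, SE 0.31, edgeR FDR = 0.00873). By size of the fold it ranked 98 among the 1261 genes of the whole table that were called higher. It was called in each of the 6 fits without 1 library.

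*SEMA7A* (ENSXETG00000030557), a semaphorin tethered to the membrane by a lipid anchor, was at 2.17, 1.95 and 1.84 CPM in the KD and at 0.805, 1.33 and 0.494 CPM in the controls. The rise was 2.20-fold (1.99 ± 0.167 against 0.878 ± 0.425 CPM, log2 fold change 1.14, SE 0.34, edgeR FDR = 0.0864). This call was weak: it held in 1 of the 6 fits without 1 library, the one without control replicate 2 (edgeR FDR = 0.0364), and the others gave 0.163 to 0.206. The gene has 3 transcripts in the table, and the transcript with the most reads gave a log2 fold change of 0.83 alone (edgeR FDR = 0.149). *plxnc1* (ENSXETG00000023817), which encodes the plexin that binds semaphorin 7A in mammals, was at 4.45, 4.55 and 4.04 CPM in the KD and at 2.35, 2.15 and 2.03 CPM in the controls. It rose 1.99-fold (4.34 ± 0.272 against 2.18 ± 0.163 CPM, log2 fold change 0.99, SE 0.19, edgeR FDR = 0.0214) and was called in each of the 6 fits without 1 library.

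Of the 17 semaphorins 2 were called (11.8%, against 14.4% of all genes). None of the other 15 was called, and their differences went both ways. *sema3b* (ENSXETG00000007320), a secreted semaphorin, had the most reads of the family and was at 312, 325 and 392 CPM in the KD and at 378, 303 and 376 CPM in the controls. Those ranges overlapped (log2 fold change -0.04, SE 0.14, edgeR FDR = 0.902), and the sign turned under 2 scalings. The class 3 semaphorins, which signal through neuropilins, had a median log2 fold change of -0.05 over 6 genes. Of the 6 edgeR called 0, against 14.4% of all genes (2 at an unadjusted p below 0.05, 2 by DESeq2). Both of those lay apart in the libraries. *sema3f* was at 12.5, 12.4 and 14.3 CPM in the KD and 7.81, 9.51 and 10.5 CPM in the controls (log2 fold change 0.49, SE 0.16, edgeR FDR = 0.108, and 0.0161 with the block). *sema3d* was at 29.2, 35.1 and 26.8 CPM in the KD and 39.9, 39.4 and 38.6 CPM in the controls (log2 fold change -0.37, SE 0.13, edgeR FDR = 0.125, and 0.0274 with the block). *sema3d* lies beside *sema3a*, and that beside *sema3e*, on chromosome 3 in the RefSeq annotation, and the groups of these neighbours overlapped, with log2 fold changes of -0.07 and 0.12.

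Class 4 semaphorins, which are transmembrane proteins, had a median log2 fold change of 0.17 over 5 genes. Of the 5 edgeR called 0, against 14.4% of all genes (1 at an unadjusted p below 0.05, 0 by DESeq2). *sema4d* was at 46.6, 46.8 and 44.7 CPM in the KD and at 54.4, 53.1 and 53.8 CPM in the controls. The groups were narrow and did not overlap, but the difference was small (log2 fold change -0.22, SE 0.10, edgeR FDR = 0.210, and 0.0878 with the block). *sema4a* lay the other way, at 36.3, 29.0 and 21.8 CPM against 20.6, 21.6 and 20.9 CPM (log2 fold change 0.46, SE 0.19, edgeR FDR = 0.172, and 0.0528 with the block). Of the 4 class 6 semaphorins only *sema6c* was called (25.0%, against 14.4% of all genes). *sema6b* (ENSXETG00000022081) was at 5.01, 7.17 and 5.64 CPM in the KD and at 6.11, 11.4 and 5.80 CPM in the controls, with overlap (log2 fold change -0.40, SE 0.29, edgeR FDR = 0.450). *sema6a* and *sema6d* had log2 fold changes of -0.05 and 0.13, within their spread. The semaphorins not yet given (*sema3c*, *sema4b*, *sema4c*, *sema4g* and *sema5b*) overlapped between the groups, with log2 fold changes from -0.12 to 0.25.

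Plexins, the receptors of the semaphorins, were higher in the KD in 7 of 8 cases by log2 fold change (51.0% of all genes), with a median of 0.35. Of the 8, *plxnc1* alone was called (12.5%, against 14.4% of all genes). *plxnb1* (ENSXETG00000017823), whose protein binds semaphorin 4D in mammals, was at 197, 139 and 149 CPM in the KD and at 139, 95.8 and 105 CPM in the controls. Replicate 1 was the highest in both groups, and each KD library was above the control library of its number by a like amount (log2 differences of 0.50, 0.53 and 0.51). Without the block the gene missed the threshold (161 ± 30.9 against 113 ± 22.7 CPM, log2 fold change 0.51, SE 0.19, edgeR FDR = 0.136), and with it the FDR was 0.00274. The 4 class A plexins had log2 fold changes from 0.17 to 0.56. Of these edgeR called 0, against 14.4% of all genes (0 at an unadjusted p below 0.05, 0 by DESeq2). With the block 3 of the 4 passed, against 38.2% of all genes. They were *plxna2*, *plxna3* and *plxna4* (edgeR FDR 0.0166, 0.0826 and 0.0205). *plxna1*, *plxnb3* and *plxnd1* overlapped between the groups (log2 fold changes of 0.17, 0.05 and -0.01) and did not pass in either fit. A further plexin, *plxnb2* (ENSXETG00000022253), is named in the table only by a RefSeq identifier and was not counted among the 61. It was at 299, 274 and 302 CPM in the KD and at 222, 189 and 208 CPM in the controls, and rose 1.41-fold (log2 fold change 0.50, SE 0.11, edgeR FDR = 0.0386). It lost the call without KD replicate 3, control replicate 2 or control replicate 3 (edgeR FDR 0.0740 to 0.137 over the 6 fits without 1 library).

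The neuropilins, co-receptors of class 3 semaphorins and of VEGF, differed by less than the spread between libraries. *nrp1* (ENSXETG00000012629) was at 139, 148 and 153 CPM in the KD and at 144, 146 and 130 CPM in the controls (log2 fold change 0.07, SE 0.11, edgeR FDR = 0.743). *nrp2* (ENSXETG00000010095) was at 13, 15.7 and 15.5 CPM in the KD and at 14.5, 17.6 and 14.7 CPM in the controls (log2 fold change -0.09, SE 0.15, edgeR FDR = 0.771). The ranges overlapped for both. Of the 2 edgeR called 0, against 14.4% of all genes (0 at an unadjusted p below 0.05, 0 by DESeq2). Neither was called with the block (38.2% of all genes).

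Among the receptors, only Eph receptors were called lower, 1 of 8 EphA and 1 of 3 EphB, where 6.98% of all genes fell. Neither was called after scaling to 4 reference genes. Of the EphA genes 4 and of the EphB genes 2 had a log2 fold change above 0. *ephb4* (ENSXETG00000011170), the receptor for ephrin-B2 that marks venous endothelium in mouse and zebrafish, was at 57.7, 58.7 and 44.7 CPM in the KD and at 76.6, 81.7 and 96.5 CPM in the controls. The groups did not overlap, and the fall was 1.58-fold (53.7 ± 7.8 against 84.9 ± 10.3 CPM, log2 fold change -0.66, SE 0.15, edgeR FDR = 0.0385). The call was lost without control replicate 3, the highest control library (log2 fold change -0.56, edgeR FDR = 0.141). The other EphB receptors did not follow it. *ephb1* (ENSXETG00000013722) was at 90.8, 71.4 and 70.2 CPM in the KD and at 70.8, 56.0 and 66.1 CPM in the controls (log2 fold change 0.27, SE 0.15, edgeR FDR = 0.304, and 0.0668 with the block). *ephb3* (ENSXETG00000017293) was at 87.8, 75.4 and 73.9 CPM in the KD and at 79.6, 65.1 and 71.3 CPM in the controls (log2 fold change 0.13, SE 0.13, edgeR FDR = 0.556). Both overlapped between the groups.

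*epha3* (ENSXETG00000020173), a receptor for ephrin-A5, was at 4.30, 6.31 and 4.30 CPM in the KD and at 7.85, 11.9 and 9.11 CPM in the controls. Replicate 2 was the highest in both groups, and all KD libraries were below all controls. It fell 1.94-fold (4.97 ± 1.16 against 9.62 ± 2.07 CPM, log2 fold change -0.96, SE 0.23, edgeR FDR = 0.0491). The call was lost without KD replicate 1, KD replicate 3 or control replicate 3 (edgeR FDR 0.130, 0.132 and 0.134). With scaling to 4 reference genes the falls of *epha3*, *ephb4* and *ntn3* kept their sign but not the call (edgeR FDR 0.214, 0.220 and 0.154).

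The other EphA receptors differed among themselves. *EPHA5* (ENSXETG00000034200) was at 6.54, 7.63 and 7.27 CPM in the KD and at 3.23, 6.17 and 4.19 CPM in the controls, without overlap (log2 fold change 0.66, SE 0.25, edgeR FDR = 0.152, and 0.0163 with the block). *epha4* (ENSXETG00000007614), which binds ephrins of both classes, had the most reads of the family. It was at 292, 201 and 234 CPM in the KD and at 228, 159 and 185 CPM in the controls, so that the order of the replicate numbers was the same in both groups (log2 fold change 0.35, SE 0.18, edgeR FDR = 0.287, and 0.0136 with the block). *epha6* was at 0.147, 0.666 and 0.228 CPM in the KD and 0.313, 0.997 and 0.663 CPM in the controls, lower in all 3 pairs although the groups overlapped (edgeR FDR = 0.362, and 0.0541 with the block). *epha8* was hit by 0, 1 and 0 reads in the KD and by 2, 7 and 4 reads in the controls (edgeR FDR = 0.150, and 0.0904 with the block), too few for a fold to be given. *epha2*, *epha7* and *epha10* had log2 fold changes of 0.39, 0.30 and -0.07, and only *epha7* passed with the block (edgeR FDR = 0.0871).

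No ephrin was called by edgeR without the block, where 14.4% of all genes were. With the block 2 of the 4 ephrin-A and 1 of the 3 ephrin-B ligands passed, against 38.2% of all genes. Of the 4 ephrin-A ligands edgeR called 0 (2 at an unadjusted p below 0.05, 1 by DESeq2) and of the 3 ephrin-B ligands 0 (1 at an unadjusted p below 0.05, 1 by DESeq2). *efna1* (ENSXETG00000019428) was at 24.1, 13.5 and 12.5 CPM in the KD and at 11.5, 7.86 and 11.6 CPM in the controls. The groups did not overlap, but KD replicate 1 stood far above the others (16.7 ± 6.42 against 10.3 ± 2.12 CPM, log2 fold change 0.70, SE 0.28, edgeR FDR = 0.172, and 0.0248 with the block). Its neighbour on chromosome 8 in the RefSeq annotation, *efna3*, was at 5.07, 4.36 and 3.58 CPM in the KD and at 3.13, 2.61 and 3.00 CPM in the controls (log2 fold change 0.57, SE 0.21, edgeR FDR = 0.136, and 0.0331 with the block). *efnb2* (ENSXETG00000017801), the ligand of *ephb4*, was at 4.79, 4.05 and 5.42 CPM in the KD and at 3.86, 2.73 and 2.72 CPM in the controls. The groups did not overlap, and the direction was opposite to that of its receptor (log2 fold change 0.61, SE 0.22, edgeR FDR = 0.138, and 0.0318 with the block). *efnb1* (ENSXETG00000006578) was at 18.6, 21.2 and 21.1 CPM in the KD and at 18.5, 21.7 and 20.0 CPM in the controls. *EFNB3* (ENSXETG00000031645) was at 4.30, 5 and 3.23 CPM in the KD and at 4.64, 5.08 and 4.5 CPM in the controls. Both overlapped, with log2 fold changes of 0.02 and -0.19 (edgeR FDR = 0.947 and 0.630). *efna2* and *efna5* had log2 fold changes of 0.06 and 0.27, within their spread.

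*unc50* (ENSXETG00000026564), the match that is no guidance gene, was at 34.9, 31.6 and 37.5 CPM in the KD and at 27.7, 25.8 and 31.0 CPM in the controls (log2 fold change 0.30, SE 0.13, edgeR FDR = 0.191, and 0.0404 with the block). Its log2 fold change was as large as that of *slit2*. Without it, 10 of 60 genes were called and the median log2 fold change was again 0.17. Divided by role, 4 of the 30 ligands and 6 of the 30 receptors were called (13.3% and 20.0%, against 14.4% of all genes), and the medians were 0.13 and 0.28. With the block 12 ligands and 19 receptors passed, against 38.2% of all genes. A difference between ligands and receptors was not tested.

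KD replicate 2 held the highest KD value for 31 of the 61 genes, and control replicate 2 the highest control value for 30. These counts were made separately, so they do not say how many genes shared the pattern. The share over all genes was not counted. Over all 16944 genes, libraries of the same number also varied together (r = 0.573, 0.586 and 0.316), so shared variation by number is not particular to guidance genes. These correlations do not say how often replicate 2 was the highest. Among the 22 genes that edgeR called only with the block, the log2 differences in pairs 1, 2 and 3 were 0.53, 0.66 and 0.57 for *unc5c*, -0.45, -0.17 and -0.53 for *sema3d*, and -1.09, -0.58 and -1.54 for *epha6*. Some of the 22 were also called by DESeq2 without a block, *unc5c* and *sema3d* among them (DESeq2 FDR = 0.0653 and 0.0622). *epha6* was not (DESeq2 FDR = 0.405).

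**Figure D3:**
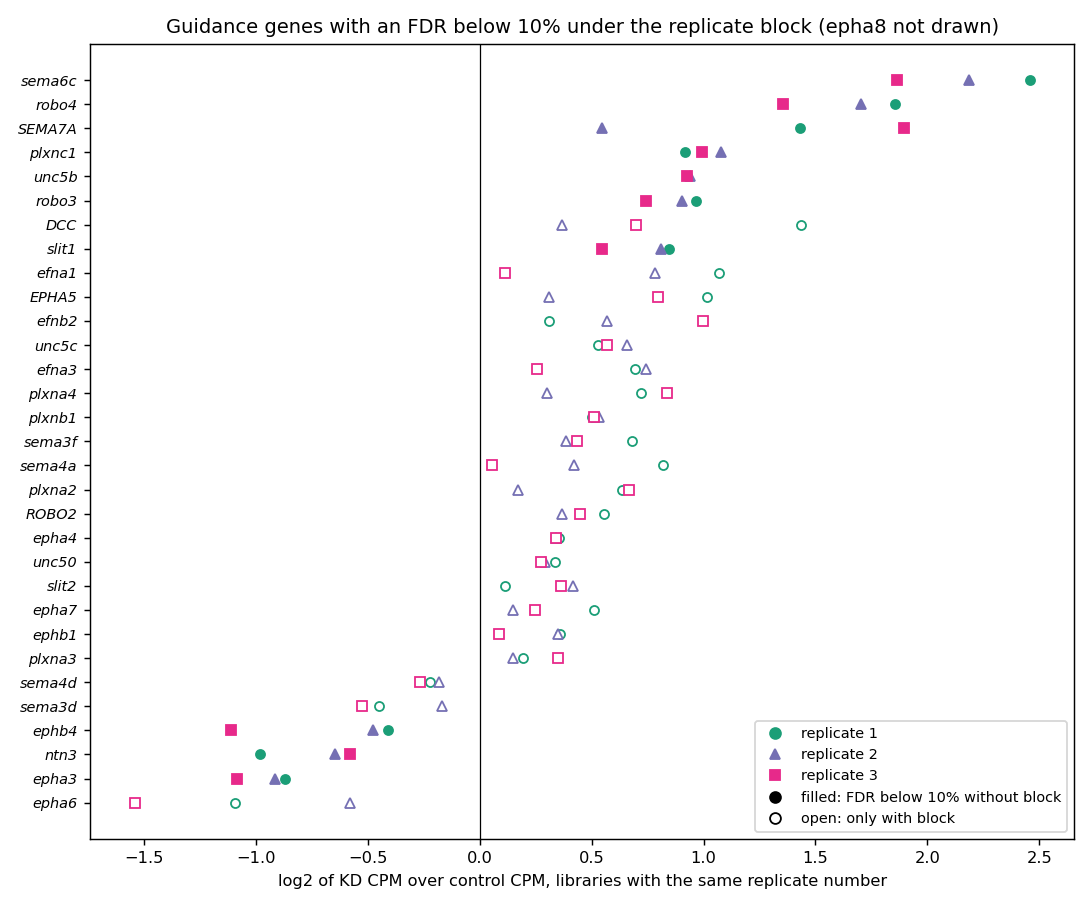
Log2 of the KD level over the control level within each replicate number for 31 of the 32 guidance genes with an FDR below 10% under the replicate block (*epha8*, with reads too few for a ratio, is not drawn). Circles, triangles and squares are replicates 1, 2 and 3, filled where the gene was also called by edgeR without the block. Every gene shown lies on one side of 0 in all 3 pairs, from 1.86 to 2.46 for *sema6c* at the top. The genes were chosen by a test on these same differences, so the common side is no separate support.

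The uninjected embryos at stage 20 show where the guidance genes stood earlier in development. This library has no replicate and differs from the controls in both stage and injection, effects that cannot be told apart, so its values are a description. Rescaled over all 7 libraries, 36 of the 61 genes were higher at stage 20 than in every control library (39.0% of all genes) and 16 were lower than in every control library (40.0% of all genes). The median ratio of stage 20 over the control mean was 1.45 for the guidance genes and 0.971 for all genes. The ephrin-B ligands, neuropilins and EphB receptors were within or above the controls throughout, with median ratios of 1.86, 1.87 and 2.03. Among semaphorins 11 were above and 5 below the controls, and among EphA receptors 3 were above and 4 below.

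The genes called in the KD had very different levels at stage 20, on the scale of the 7 libraries. *robo4* was at 39.4 CPM at stage 20 against 10.1 ± 1.74 CPM in the controls (3.89 times), and *unc5b* at 50.6 against 19.2 ± 0.671 CPM (2.63 times). *robo3* was at 177 against 82.7 ± 6.85 CPM (2.14 times) and *ntn3* at 22.8 against 10.6 ± 2.53 CPM (2.15 times). These 4 genes stood above all control libraries. Within the range of the controls were *slit1* (144 against 139 ± 8.67 CPM), *plxnc1* (2.13 against 2.16 ± 0.161 CPM) and *ephb4* (91.7 against 84.1 ± 10.5 CPM). Below it were *sema6c* (2.54 against 9.50 ± 3.05 CPM), *SEMA7A* (0.472 against 0.868 ± 0.415 CPM) and *epha3* (0.991 against 9.52 ± 2.00 CPM, 9.60 times lower). The KD and the stage 20 comparisons use the same control libraries. Outside the called genes, *efnb2* (14.3 against 3.07 ± 0.657 CPM, 4.65 times) and *epha2* (3.72 against 1.01 ± 0.195 CPM, 3.70 times) stood highest relative to the controls.

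**Figure D4:**
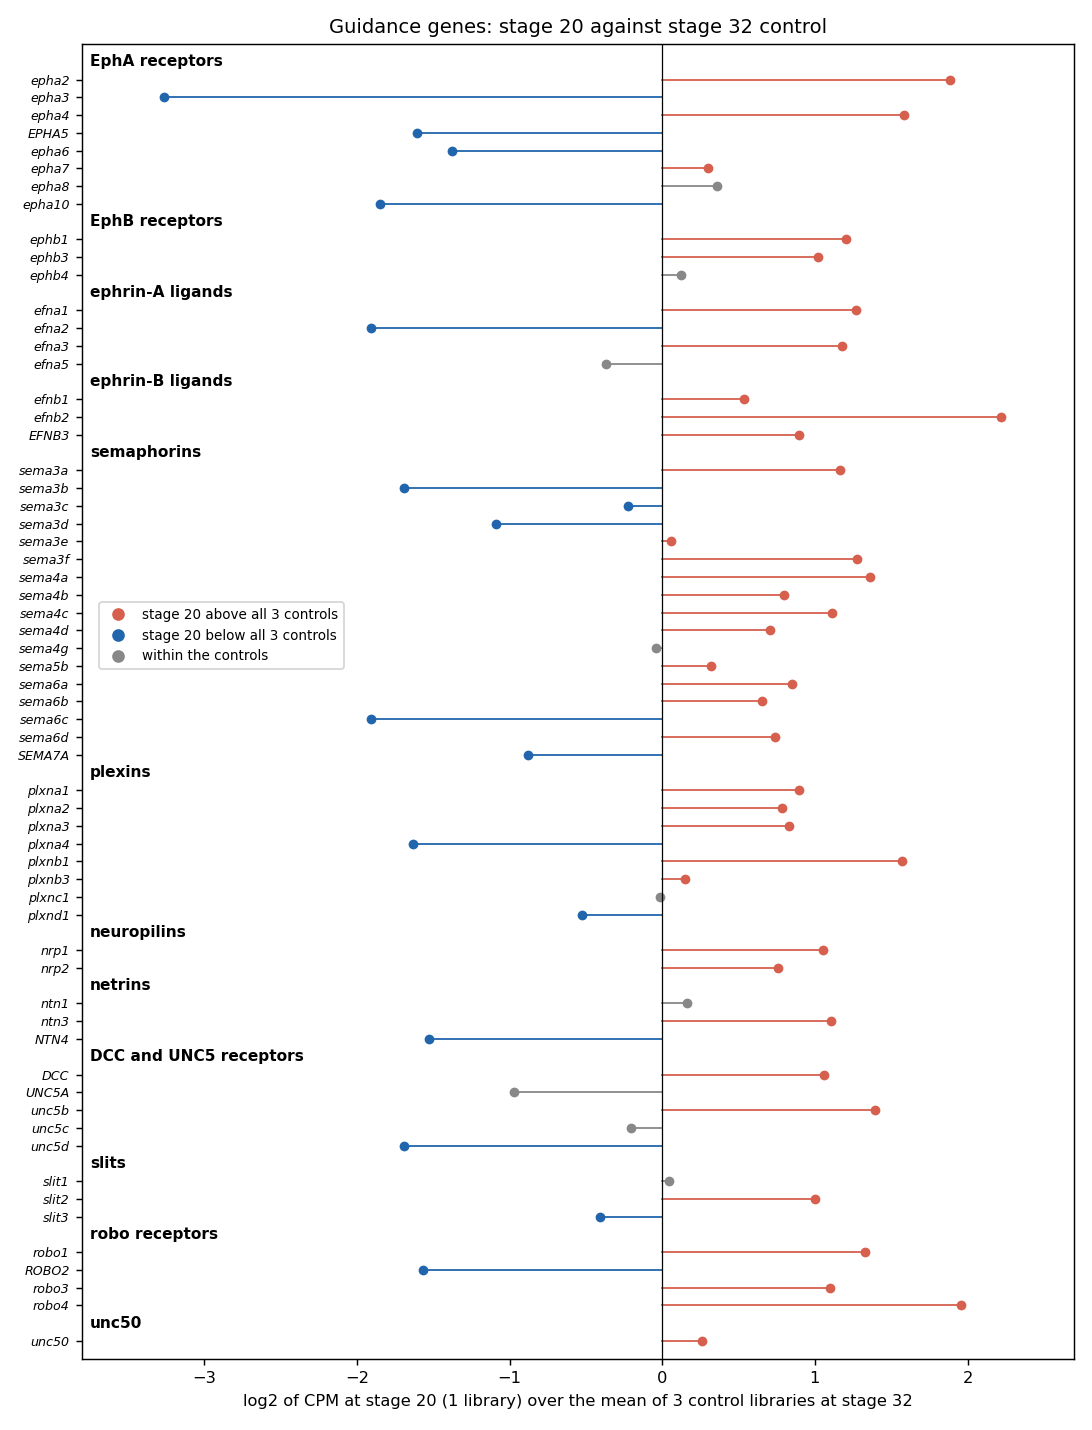
Log2 of the level in the 1 stage 20 library over the mean of the 3 stage 32 control libraries for all 61 guidance genes by family, red where stage 20 was above all 3 controls, blue where it was below all 3 and grey where it was within them. Most bars point to higher levels at stage 20 (36 genes red, 16 blue), with *efnb2* farthest to the right and *epha3* farthest to the left.

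Genes that work with these ligands and receptors were read from a list of co-receptors, adhesion partners and cytoplasmic effectors. Of 63 such genes that were measured, 10 rose (15.9%, against 7.44% of all genes) and 4 fell (6.35%, against 6.98%), and their median log2 fold change was 0.14. The largest rises were in *dscaml1*, a cell adhesion molecule of neurons (285 ± 61.9 against 101 ± 39.3 CPM, 2.84-fold, edgeR FDR = 0.0276), and *dpysl4*, of the family that passes on semaphorin signals in growth cones (5.72 ± 1.53 against 2.6 ± 0.487 CPM, 2.19-fold, edgeR FDR = 0.0411). The largest falls were in *cxcl12*, a chemokine that guides migrating cells (3.61 ± 1.07 against 6.55 ± 1.43 CPM, 1.81-fold lower, edgeR FDR = 0.0908), and *mical2*, an actin-oxidising enzyme related to the plexin effector MICAL1 (11 ± 0.413 against 18.1 ± 2.39 CPM, 1.65-fold lower, edgeR FDR = 0.0262). With the block 23 of the 63 were higher (36.5%, against 19.2% of all genes) and 8 lower (12.7%, against 19.0%). The summed level of the list was 2320 to 2400 CPM in the KD libraries and 1810 to 2020 CPM in the controls, without overlap. This sum gives most weight to genes at high levels, such as *dscaml1* and *neo1* (258 ± 12.0 against 160 ± 10.2 CPM, edgeR FDR = 0.0122), and does not describe each gene of the list.

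Markers of tissues in which guidance genes are active also differed between the groups. The lists hold genes that the authors reported as changed in these same libraries, so their shares are no separate support. Among them are *sox2*, *foxb1*, *pax3*, *zic2* and *neurog3* of the neural progenitors, *myh2* and *tnnc1* of muscle, and *cav1*, *cav2* and *t2* of the notochord. Of 20 skeletal muscle genes 17 fell (85.0%, against 6.98% of all genes) and 0 rose. Their summed level was 17700 to 19400 CPM in the KD and 35200 to 37900 CPM in the controls. Of 19 genes of neural progenitors 11 rose (57.9%, against 7.44% of all genes) and 0 fell, with a summed level of 1110 to 1520 against 944 to 1140 CPM. Of 24 neuronal genes 5 rose (20.8%, against 7.44% of all genes) and 0 fell, with 1350 to 1720 against 994 to 1390 CPM. By the group means, most of the neuronal sum was reads of *tubb2b* (901 ± 72.8 against 612 ± 91.3 CPM, edgeR FDR = 0.0623). Replicate 2 had the highest neuronal sum in both groups, and the ranges of both neural lists overlapped, but within each replicate number the KD sum was above the control sum for both lists. With the block 11 of the neuronal genes were higher and 0 lower, and 14 of the progenitor genes were higher and 1 lower, against 19.2% and 19.0% of all genes. Of 15 notochord genes, *t* and *t2* included, 5 fell (33.3%, against 6.98% of all genes) and 1 rose (6.67%, against 7.44%). Their sum, most of it reads of *krt8*, was 2180 to 4250 against 1420 to 2910 CPM.

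*robo4*, *unc5b* and *ephb4* are expressed by vascular endothelium in mouse or fish, so its markers are given beside them. Of 19 endothelial genes 1 rose, *cldn5* (103 ± 29.0 against 53.5 ± 14.2 CPM, edgeR FDR = 0.0684), and 1 fell, *cdh5*, the cadherin of endothelial junctions (13.9 ± 0.715 against 29.9 ± 3.83 CPM, edgeR FDR = 0.00582). Each of these is 5.26% of the list, where 7.44% of all genes rose and 6.98% fell. With the block 2 of the endothelial genes were higher and 8 lower (10.5% and 42.1%, against 19.2% and 19.0% of all genes). Their summed level was 603 to 651 CPM in the KD and 686 to 745 CPM in the controls, and their median log2 fold change was -0.24. Of 17 neural crest genes 1 rose (5.88%, against 7.44% of all genes), *sox10* (88.1 ± 15.2 against 57.4 ± 4.39 CPM, edgeR FDR = 0.0433). With the block 6 of the 17 were higher and 1 lower (35.3% and 5.88%, against 19.2% and 19.0% of all genes). The sum was 1160 to 1280 against 998 to 1070 CPM. Of 11 eye and retina genes edgeR called 0, against 14.4% of all genes (1 at an unadjusted p below 0.05, 0 by DESeq2). With the block 3 of the 11 were higher and 2 lower (27.3% and 18.2%, against 19.2% and 19.0% of all genes). The sum was 361 to 434 against 323 to 514 CPM. No marker was at 0 in all libraries of a group. The part of these tissues in the differences of the guidance genes was not tested.

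**Figure D5:**
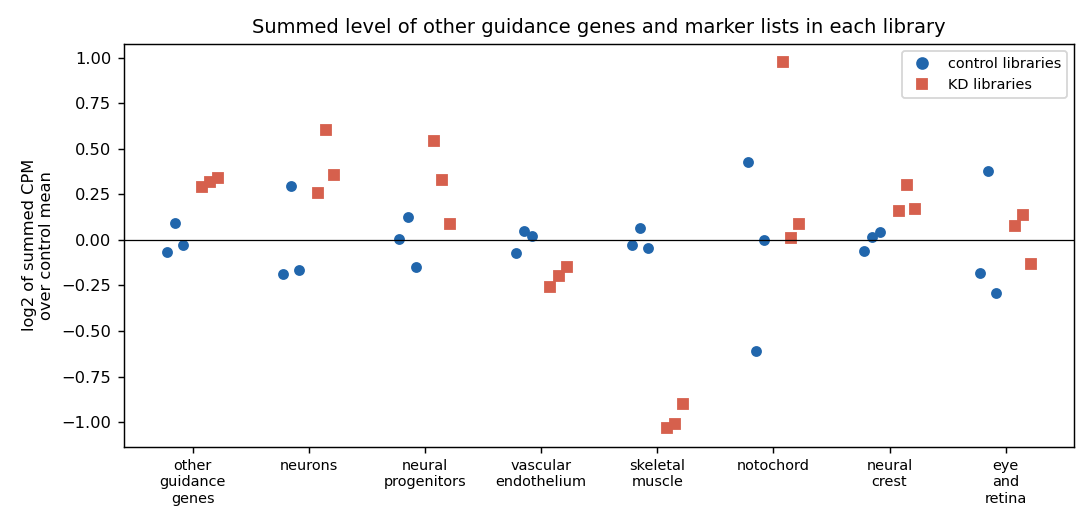
Summed CPM of each list of other guidance genes and tissue markers in each stage 32 library, as log2 over the mean of the 3 control libraries, with circles for controls and squares for Xbra/Xbra3 KD. Skeletal muscle lies lowest in the KD (17700 to 19400 CPM against 35200 to 37900 CPM in the controls). The sum of the other guidance genes lies above all controls in each KD library. Sums give most weight to genes at high levels.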

How the data were processed

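Poly(A) RNA was measured by paired-end sequencing in 3 Xbra/Xbra3 KD, 3 control and 1 uninjected stage 20 library. The authors used Bowtie 0.12.7, per their methods, to place read pairs on the Ensembl JGI4.1 transcriptome. A pair on transcripts of different genes was discarded, which lowers near-identical paralogs. The authors deposited the counts of reads per transcript without normalization. The sources do not say that strand was used, so reads of antisense genes cannot be told apart. The header holds extra empty fields, so its 7 names were given to the 7 value columns in their order. Transcripts were summed per gene, with 14 of the guidance genes having several. Symbols were matched without regard to letter case. 3 genes named only by a RefSeq identifier were given a symbol from the RefSeq annotation of UCB_Xtro_10.0, which was also used for gene order.

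The test was edgeR 4.0.16's quasi-likelihood test (R 4.3.3) on genes with at least 10 reads in total at stage 32, scaled by TMM, with no replicate term. P-values were adjusted over all genes by Benjamini-Hochberg, and the FDR threshold was 10%. SE is the log2 fold change over the root of the F statistic. With 3 libraries against 3 an exact permutation test cannot give p below 0.1. CPM for stage 20 used TMM over 7 libraries. P-values set the difference between groups against the spread between these libraries, which edgeR estimates in part from other genes. Without the block, that spread also holds the variation shared by libraries of the same number. The fit was tested on simulated counts drawn without a replicate effect, so that test does not cover libraries that vary together by number. For the block, the replicate numbers were taken to pair the libraries, which the labels do not state. Deviations from the group mean correlated over 16944 genes at r = 0.573, 0.586 and 0.316 for the same number. For different numbers r was -0.510 to 0.00961. Because each group was centred on its own mean, these values are not independent of those for the same number.

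Alternatives were other scalings (library size only, DESeq2's size factors, the summed reads of 4 reference genes *odc1*, *rpl8*, *eef1a1* and *gapdh*), no filter, filterByExpr, DESeq2 1.42.0, the replicate block, an FDR of 5%, the transcript with the most reads, a prior count of 2, leaving out each library, and, added after seeing the data, edgeR's legacy dispersions. The genes and lists were chosen with earlier results of these data known. Named with all values were the called genes, the one with the most reads in each family, and the largest rise and fall of each family at a mean of at least 1 CPM; of the lists, at most the 2 largest rises and falls among called genes. Genes that edgeR called only with the block, *slit3*, *robo1*, *tubb2b*, *neo1* and the genes given by range were named after their values were seen. Promoter and protein sequences were not used here.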

Additional observations from a re-analysis of the deposited data

How the results depend on the processing

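The number of guidance genes called was 10 with the settings used (14.4% of all genes) and 16 with library size only (14.9% of all genes). It was 18 with DESeq2 (20.0% of all genes) and 32 with the replicate block (38.2% of all genes). Leaving out 1 library gave 7 to 14 (5.14% to 11.7% of all genes). The 10 called genes were all called again under every scaling and test except scaling to 4 reference genes, which kept 6 (*epha3*, *ephb4*, *ntn3* and *SEMA7A* were lost), and the transcript with the most reads, which kept 9. At an FDR of 5% 8 were left (7.49% of all genes), and leaving out 1 library kept 7 to 10. The median log2 fold change of the guidance genes was 0.17, against 0.24 with library size only, 0.37 with scaling to 4 reference genes and 0.13 to 0.21 without 1 library; the same scalings moved the median of all genes from 0.01 to 0.08 and 0.21. Over all genes 1261 were called higher and 1182 lower, against 1649 and 869 with library size only and 1790 and 398 with the 4 reference genes. The replicate block, which uses the pairing by number, called 107 genes of the lists against 56 without it (38.2% and 14.4% of all genes). The count was 34 at an FDR of 5% (7.49% of all genes) and 25 to 48 without 1 library (5.14% to 11.7% of all genes). It was 25 without control replicate 3, 48 without control replicate 2 and 31 to 36 without the others. The block lost none of the called guidance genes.

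Single genes were followed through the alternatives only for 26 genes, those named by the rule given above. Among these 26 the sign turned in 12 cases, in 5 uncalled genes: *efnb1* (-0.036 to 0.077 without 1 library, below 0 without KD replicate 2, KD replicate 3 or control replicate 1), *EFNB3* (0.011 with 4 reference genes), *nrp2* (0.11 with 4 reference genes), *sema3b* (0.040 with library size only, 0.17 with 4 reference genes, and -0.16 to 0.024 without 1 library, above 0 without KD replicate 1, control replicate 1 or control replicate 3) and *UNC5A* (-0.72 to 0.57 without 1 library, above 0 without KD replicate 1 or control replicate 2). Other uncalled genes could turn too, such as *slit3* (0.0074, and -0.0086 with the block) and *plxnd1* (-0.0113, and 0.0277 with the block). The cause was not tested. The median log2 ratio of stage 20 over control was 0.54, with 0.42 to 0.65 under its alternatives. *epha8* (0 to 7 reads in each stage 32 library) and *epha6* (15 to 112 reads) had the fewest reads of the guidance genes, and so the largest relative counting error. The search of promoters for T-box motifs that was planned was not run.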

Other observations

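Another gene that the table names only by a RefSeq identifier, *sema3fl* (ENSXETG00000007179), resembles the class 3 semaphorin *sema3f* by name. It was at 2.63, 2.21 and 2.68 CPM in the KD libraries and at 1.94, 1.41 and 1.64 CPM in the control libraries. The groups did not overlap, and the gene missed the threshold (2.51 ± 0.256 against 1.66 ± 0.264 CPM, n = 3 libraries per group, log2 fold change 0.59, SE 0.23, edgeR FDR = 0.152, and 0.0383 with the replicate block).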
